A study of Rattus norvegicus with 6 samples.

Results

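The starts described here are the transcript starts of loci for which more than 1 start was listed in cultured rat vascular smooth muscle cells. They were selected on the FPKM (fragments of an event per kilobase of length and scaled to the mapped reads of the library) of each start: a start was kept where it reached 1 FPKM in at least 2 of the 6 libraries, and a locus was a member where it held at least 2 kept starts. This gave 3568 starts in 1575 loci, out of 11854 kept starts in 9861 loci. The member loci were thus 16.0% of the loci with a kept start, and their starts were 30.1% of the kept starts. A further 7036 listed starts stayed below the limit, 951 of them inside member loci. Starts at the same 5′ position with different first-exon ends were listed, and are counted here, as separate starts. In 311 of the 1575 member loci all kept starts were of this kind, so these loci had no alternative start position.

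The study compared vascular smooth muscle cells (VSMCs), labelled as aorta of wild type SD rats, with cells in which SLC2A10 was targeted by interference. SLC2A10 is the gene of the glucose transporter GLUT10. The titles of the treated samples name siRNA (small interfering RNA), whereas the paper describes shRNA (short hairpin RNA) carried by a virus. The control group had 2 libraries, the group given interference sequence 2 had 2 libraries, and the group given interference sequence 3 had 2 libraries. All cells were grown in DMEM/F12 with serum, and by the paper the control cells received a control virus. The labels give the treated cells as SLC2A10-/- although their titles and the methods describe interference, the extraction text names frozen aorta although the methods describe cultured cells, and the series text speaks of mice. Nothing in the labels says whether the libraries of a group came from separate cultures, so a p-value measures only the spread between these libraries. The level of the targeted gene was not analysed here, because loci are given by assembly numbers (XLOC) and Ensembl IDs, and 0 of the IDs of the member loci could be paired with a gene name. For the same reason the labelled cell type could not be checked against its markers, and no promoter sequence could be assigned to a locus.

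Many mammalian genes have several promoters, each with a first exon of its own that is spliced to shared downstream exons. Transcripts from such promoters can differ in the leader before the coding region, which affects translation, or in the N-terminal end of the protein. Genes of the contractile apparatus and cytoskeleton of smooth muscle are among those known to be transcribed from alternative promoters. In RNA sequencing without capture of the 5′ end, a start is the outer edge of an assembled first exon and not a mapped cap site.

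Most member loci had few starts. There were 1248 loci with 2 kept starts, 256 with 3, 53 with 4, 16 with 5 and 2 with 6. An Ensembl ID was attached to 1542 of the member loci and to none of the other 33 (2.10% without one, against 3.13% of the loci with a single kept start). The values just inside the limit, taken as the second highest FPKM over the libraries, were 1.000051 in XLOC_020681, 1.004372 in XLOC_027009 and 1.004890 in XLOC_029189. Just outside it, starts of XLOC_007118, XLOC_046268 and XLOC_040434 had 0.996771, 0.994708 and 0.992259. Starts so close to the limit were often listed in some libraries only: the one inside it in XLOC_020681 had 0.642 and 0.778 FPKM in the controls, 1.00 and 0 in sequence 2, and 0 and 1.06 in sequence 3.

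The starts of a locus ranged from the same base to more than 100000 bases apart, and few were within 100 bases without sharing a base. Of 1993 pairs of neighbouring starts, 459 (23.0%) shared their 5′ position and differed in where the first exon ended. A further 132 pairs (6.62%) were 1 to 100 bases apart, 456 (22.9%) 101 to 1000, 360 (18.1%) 1001 to 10000, 491 (24.6%) 10001 to 100000, and 95 (4.77%) more than 100000. The median distance was 802 bases with quartiles of 10 and 14797, and among the 1534 pairs at different positions it was 3296. First exons overlapped in 193 of these pairs. All kept starts sat at 1 position in 311 loci, so that 1264 loci had starts at different positions. No 2 kept starts of a locus had the same first-exon end.

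**Figure D1:**
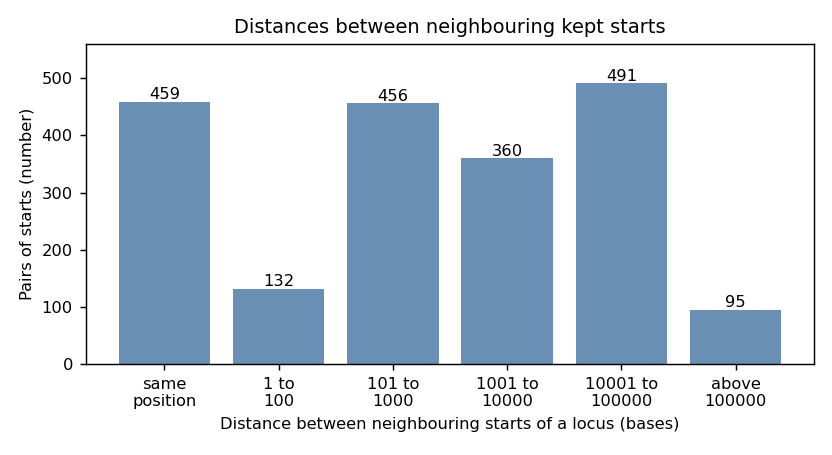
The bars give the number of pairs of neighbouring kept starts (vertical axis) by the distance between them in bases (horizontal axis), over 1993 pairs of 1575 loci. The classes of 10001 to 100000 bases, with 491 pairs, and of the same position, with 459, were as full as the class of 101 to 1000 bases with 456.

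XLOC_033075 on chromosome 4 had the widest spread. Its 6 starts on the minus strand ran over 646542 bases, from 132111079 down to 131464537, with neighbours 653 to 262790 bases apart. The most downstream start led it in every library but 1, with a share of 38.1% and 36.2% in the controls, 38.6% and 43.1% in sequence 2, and 46.5% and 37.1% in sequence 3. In the second library of sequence 3 the most upstream start, 646542 bases away, held 41.2%, against 16.9% to 22.9% in the other libraries. XLOC_034685 on chromosome 5 also had 6 starts, over 292169 bases, and was unequal: the start at 74941802 with the longer of its 2 first exons (373 bases) held 73.9% to 89.3% of the locus in each library. At the other end of the scale, the 2 starts of XLOC_038312 on chromosome 6 were 1 base apart, at 136041303 and 136041304, with first exons of 604 and 885 bases. The upstream one held 56.0% and 54.2% in the controls, 54.6% and 53.6% in sequence 2, and 53.3% and 47.0% in sequence 3, so the 2 starts were near balance in all 6 libraries.

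First exons of members had about the length of those of single starts, with a median of 202 bases against 201. First exons above 1000 bases were 6.75% of the members (241) and 3.83% of the single starts. Loci with several starts were unevenly split by strand: 979 of 5285 loci on the plus strand (18.5%) and 596 of 4576 on the minus strand (13.0%) were members. The reverse held for transcript ends, of which at least 2 were kept in 151 of 4963 loci on the plus strand (3.04%) and 232 of 4550 on the minus strand (5.10%). Why strand moved with both counts was not tested. By chromosome the share of member loci ran from 11.4% on chromosome 13 (34 of 299) to 20.5% on chromosome 20 (58 of 283).

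Member loci were also richer in other splicing events. Skipped exons were listed in 48.3% of them (760) against 30.1% of the loci with a single kept start, retained introns in 16.6% (261) against 9.06%, and alternative exon ends in 28.8% (454) against 17.2%. Several kept transcript ends were fewer in member loci, at 1.84% against 4.14%, and loci with no kept end were 12.7% against 7.89%. In member loci the median summed start FPKM was 11.3 to 11.7 over the libraries, against 6.70 to 6.98 with a single kept start. The sum of a member locus adds several starts that each had to reach the limit. A higher sum thus follows at least in part from the selection, and these medians cannot show that member loci were higher in level. The part of level in the event counts was not tested. Members held 18.2% and 18.1% of all summed start FPKM in the controls and 16.6% to 17.2% in the knockdown libraries.

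Detection varied between replicates. Of the 3568 members, 2309 (64.7%) were listed in all 6 libraries, compared with 88.3% of the single starts, while 384 were listed in 5 libraries, 293 in 4, 267 in 3 and 315 in 2. An unlisted start is given here as 0. Between the 2 controls, 498 members (14.0%) were at 0 in one library and at 1 FPKM or more in the other, and this held for 489 (13.7%) in sequence 2 and 560 (15.7%) in sequence 3. The second library of sequence 3 listed fewest members, 2941 against 3046 to 3123, and fewest starts of all kinds, 12837 against up to 13826.

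Shares were compared in loci with a summed FPKM of at least 5 in every library, which left 2326 starts in 1004 loci. One start usually dominated. The leading start, the one with the highest mean share, held a median of 76.9% of its locus (quartiles 60.8% and 90.4%). It held at least 90% in 260 loci (25.9%) and below 60% in 233 (23.2%). The median share of the leading start was 77.9% and 79.0% in the controls, 78.1% and 79.1% in sequence 2, and 77.2% and 79.2% in sequence 3. These groups overlapped, and their means lay within the pooled replicate SD of 1.02 percentage points.

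**Figure D2:**
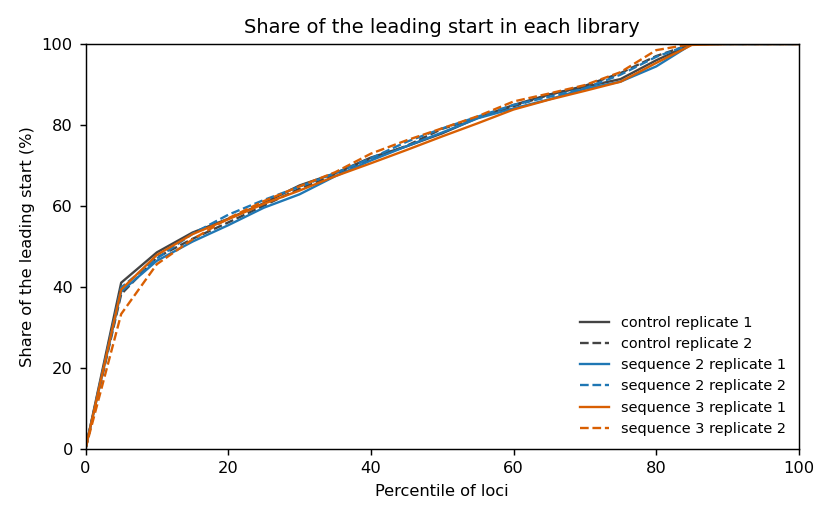
Each line is 1 of the 6 libraries and gives the share of the leading start in percent (vertical axis) at each percentile of the 1004 loci (horizontal axis). The lines lay on top of each other over most of the range, with medians between 77.2% and 79.2%.

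From 2 to 5 starts, the share of the leading start was lower with more starts. This follows in part from the count itself, as an equal split gives each start less. By distance, only 1 class stood apart in this share. The median share of the leading start was 83.5% in the 762 loci with 2 starts, 61.9% in the 184 with 3, 48.8% in the 42 with 4 and 42.0% in the 14 with 5. The 2 loci with 6 starts had 39.9% and 81.6%. Among loci with 2 starts it was 85.3% to 86.5% in every distance class except 10001 to 100000 bases, where it was 73.7% over 196 loci. The upstream start led in 355 (61.1%) of the 581 such loci with starts at different positions. Its lead was commonest at 1 to 100 bases, 71.1%, and fell through 65.2%, 61.3% and 56.6% to 48.0% in the class above 100000 bases, which held 25 loci. In the single libraries the upstream start led in 57.0% to 62.7% of these loci. Where both starts shared 1 position, the shorter first exon led in 126 of 181 loci (69.6%). In 510 loci the 2 highest starts each held at least 20% on average, and these starts were more than 10000 bases apart in 193 of them (37.8%).

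Most of the 8 most abundant loci had 1 dominant start in each library. XLOC_003309 on chromosome 1 had the highest mean total, 1146 FPKM. Its upstream start at 164308317 had 1193 and 1169 FPKM in the controls, 1104 and 1042 in sequence 2, and 901 and 1227 in sequence 3, which was 88.0% to 99.4% of the locus. The leading start held at least 99.0% in every library of XLOC_035305 and at least 99.6% in XLOC_006477, and 79.2% to 93.2% in XLOC_046899. In XLOC_009990 it held the whole locus in 4 libraries and 82.0% and 78.3% in the other two, 1 of each sequence. XLOC_013845 was divided between 2 forms starting at 46640286, and the form with the 1135-base first exon held 56.3% and 27.9% in the controls, 57.8% and 75.7% in sequence 2, and 58.2% and 55.0% in sequence 3. In XLOC_031516 on chromosome 4 the dominant start moved between replicates. The start at 31533811 had 1305 and 1282 FPKM in the controls, 0 and 1209 in sequence 2, and 1122 and 939 in sequence 3. The start 839 bases upstream, at 31532972, was listed only in the first library of sequence 2, at 155.1 FPKM, and in the second library of sequence 3, at 97.5 FPKM. The 2 libraries of sequence 2 therefore placed this locus wholly on different starts, and no test of its share passed.

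By leading start, control and knockdown libraries differed little more than replicates did. Replicates of 1 group gave another leading start in 120 to 129 of the 1004 loci (11.95% to 12.8%, 3 pairs of libraries), and a control and a knockdown library did so in 114 to 147 (11.4% to 14.6%, 8 pairs). Libraries of sequence 2 and sequence 3 differed in 121 to 155 loci (12.1% to 15.4%, 4 pairs). The median difference in the share of the leading start was 6.71 to 8.47 percentage points between replicates, 6.82 to 9.13 between control and knockdown, and 6.92 to 8.34 between the sequences. These ranges overlapped throughout, and the pairs share libraries. The Pearson correlation of the log2 ratio of a start to the other starts of its locus reached lower values between groups. It was 0.799 to 0.837 between replicates, 0.752 to 0.804 between control and knockdown, and 0.756 to 0.804 between the sequences. These last ranges overlapped that of the replicates only at its lower end. Pairs of the first library of sequence 2 with libraries of other groups gave 0.752 to 0.765. Control with the other knockdown libraries gave 0.793 to 0.804. Replicates gave 0.837 for the controls, 0.803 for sequence 2 and 0.799 for sequence 3. Apart from that library, only the control replicates stood above the pairs of control and knockdown. In bulk libraries a change in the mix of cells and a change in start use within cells cannot be told apart.

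**Figure D3:**
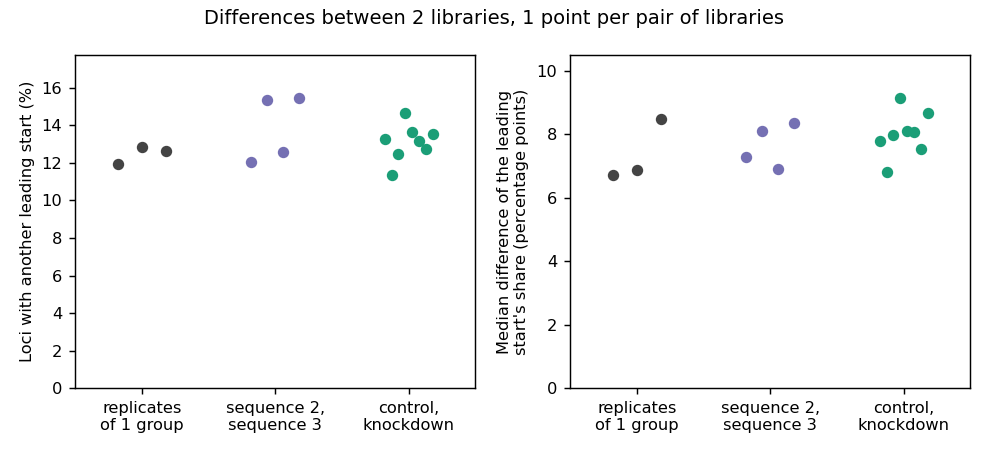
Each point is 1 pair of libraries, and the columns separate replicates of 1 group (3 pairs), sequence 2 against sequence 3 (4 pairs) and control against knockdown (8 pairs). The left axis gives the percentage of the 1004 loci with another leading start and the right axis the median absolute difference of the leading start's share in percentage points, and the 3 columns overlapped on both.

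All 6 libraries had the same leading start in 716 loci (71.3%). The leading start was alike in both controls and alike in all 4 knockdown libraries in 722 loci, and in 6 of these it differed between control and knockdown (0.598% of 1004): XLOC_000699, XLOC_008201, XLOC_017087, XLOC_023449, XLOC_038189 and XLOC_041250. These were singled out by their values and are given as a description. In XLOC_017087 on chromosome 16 the starts lay 93572 bases apart. The upstream start at 19669366 held 64.4% and 55.8% in the controls, 30.9% and 32.5% in sequence 2, and 27.9% and 20.9% in sequence 3. Its own level changed little, from 11.3 and 9.31 FPKM to 10.6 to 13.6 FPKM, while the downstream start at 19762938 went from 6.26 and 7.39 FPKM to 27.9 to 40.1 FPKM. That downstream start rose by a log2 difference in level of 2.06 (SE 0.16, limma, Benjamini-Hochberg adjusted p = 0.00498), whereas its share did not pass (adjusted p = 0.122, limma). The locus was picked on these same values, so the p-value for the level carries no support. In XLOC_000699 on chromosome 1 the upstream start at 90918081 was listed in the controls only, at 6.38 and 13.0 FPKM, and the start 995 bases downstream had 6.07 and 3.49 FPKM in the controls and 5.79 to 22.4 in knockdown.

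The test of shares passed for few starts. With limma on the log2 ratio of a start to the other starts of its locus, 8 starts in 4 loci passed an adjusted p of 0.05 for knockdown against control, 4 lower and 4 higher, which was 0.344% of the 2326 starts tested. Unadjusted, 217 starts had p under 0.05. No call survived the omission of any 1 library: limma gave 0 starts without control replicate 1, control replicate 2, sequence 2 replicate 1, sequence 2 replicate 2, sequence 3 replicate 1 or sequence 3 replicate 2, with 132 to 241 at an unadjusted p under 0.05. For sequence 2 alone 8 starts in 4 loci passed (0.344%, unadjusted 180), with 0 to 5 without 1 library, and for sequence 3 alone 9 starts in 6 loci passed (0.387%, unadjusted 221), with 0 in every omission. Both comparisons use the same controls. All 4 knockdown shares lay on one side of both controls for 355 starts (15.3%). With 2 controls among 6 libraries such an order also arises often without any effect, and no base rate was computed. Both mirrored starts of a locus with 2 starts enter this count, so it is not read as a result.

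**Figure D4:**
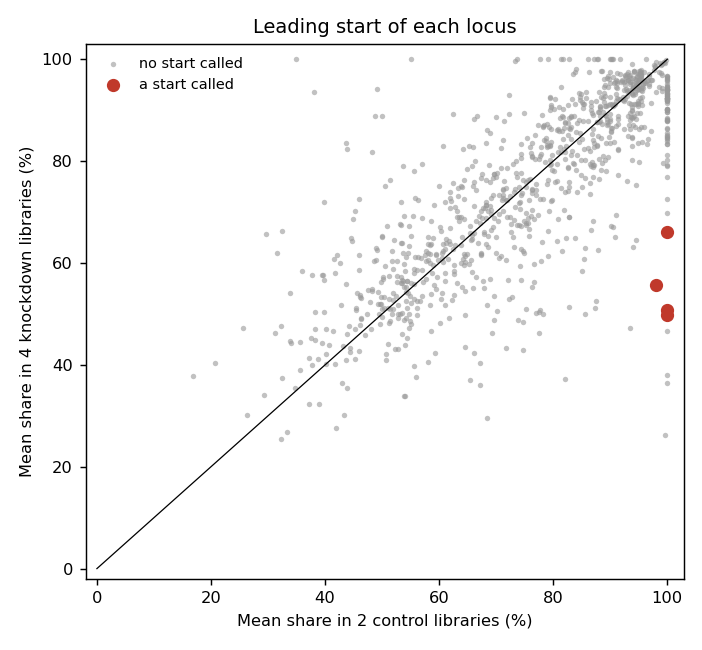
Each point is the leading start of 1 of the 1004 loci, with its mean share in the 2 controls (horizontal axis, percent) against its mean share in the 4 knockdown libraries (vertical axis, percent). Most points lay along the diagonal, and the 4 loci with a start that passed the test are drawn larger.

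XLOC_038390 (ENSRNOG00000048315, chromosome 6, minus strand) had the share change that rested on values above 0 in every library. Its starts at 1466201 and 1454480 were 11721 bases apart, with first exons of 141 and 116 bases. The upstream start had 84.0 and 79.7 FPKM in the controls, 4.14 and 3.52 in sequence 2, and 5.91 and 4.60 in sequence 3. The downstream start had 2.34 and 0.982 FPKM in the controls, 3.37 and 2.28 in sequence 2, and 5.71 and 3.66 in sequence 3. The loss was thus in the upstream start, whose groups did not overlap, while the downstream start stayed low in every library. The upstream share was 98.0% ± 1.05 in control, 57.9% ± 3.92 in sequence 2 and 53.3% ± 3.44 in sequence 3 (SD, n = 2 libraries each). The log2 ratio of the upstream start fell by 4.76 in knockdown (SE 0.33, limma adjusted p = 0.0147). Its level fell by 3.92 on the log2(FPKM + 1) scale (SE 0.13, limma adjusted p = 0.00037), and the downstream level differed by 0.84 (SE 0.31, limma adjusted p = 0.264).

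XLOC_004014, which has no Ensembl ID, lay on the minus strand of chromosome 1 with starts at 227114042, 227113399 and 227113311. The upstream start had 192.0 and 211.7 FPKM in the controls, 8.21 and 6.95 in sequence 2, and 13.3 and 14.5 in sequence 3. It held all of the locus in the controls, where the other 2 starts were not listed, and 63.9%, 54.0%, 80.1% and 66.0% in the knockdown libraries. The second start was not listed in either control and had 2.76, 3.84, 3.30 and 5.29 FPKM in knockdown. The shares of both passed (limma adjusted p = 0.0137 for each), but the second start had been kept through knockdown libraries alone and had to differ, and the share of the first is set by it. The third start, listed in 3 knockdown libraries, did not pass (limma adjusted p = 0.0622). As in XLOC_038390, the locus total was far lower in knockdown, 12.8 to 22.0 FPKM against 192.0 and 211.7, so the share of the dominant start was read at a lower total.

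The other loci that passed, XLOC_031505 and XLOC_048457, exchanged their starts in sequence 2 only. In XLOC_031505 (ENSRNOG00000052925, chromosome 4, plus strand), the start at 29529440 had 1181 and 1159 FPKM in the controls, 0 and 4.18 in sequence 2, and 1106 and 957.5 in sequence 3. The start 975 bases upstream, at 29528465, was listed only in sequence 2, at 962 and 828 FPKM. The summed level stayed between 832 and 1183 FPKM, so the locus was high in every library while its listed start differed. In XLOC_048457 (ENSRNOG00000030118, chromosome X, plus strand), the start at 65226748 had 217 and 125 FPKM in the controls, 0.890 and 3.60 in sequence 2, and 109 and 129 in sequence 3. Its partner 330 bases upstream, at 65226418, was listed only in sequence 2, at 109.5 and 158.7 FPKM. Both upstream starts had been kept through the sequence 2 libraries alone, so the share calls of these loci are a description. The sequence 3 libraries were like the controls at both loci, and the call for the 4 knockdown libraries together came from the sequence 2 libraries.

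By the same ranking, XLOC_026480 and XLOC_006940 came next and did not pass (limma adjusted p = 0.0525 for each). The upstream start of XLOC_026480 on chromosome 20, at 6348271, had 32.6 and 33.8 FPKM in the controls and was not listed in any of the 4 knockdown libraries. The start 3187 bases downstream had 40.5 and 40.9 FPKM in the controls and 20.2, 34.1, 24.9 and 52.9 in knockdown. In XLOC_006940 on chromosome 10 both starts were at 89352835. The form with the 378-base first exon had 69.4 and 70.0 FPKM in the controls and was not listed in knockdown, while the form with the 42-base first exon had 445 to 850 FPKM in all libraries. Both starts missing in knockdown had been kept through the controls alone, so their levels are a description.

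The 2 interference sequences differed in the share of 11 starts in 7 loci (limma, 0.473% of the starts tested, unadjusted 151), of which 0 to 8 passed without 1 library: 0 passed without sequence 2 replicate 1 or sequence 2 replicate 2, 1 without sequence 3 replicate 1 or sequence 3 replicate 2, and 5 without control replicate 2. XLOC_026489 (ENSRNOG00000000488, chromosome 20) was listed in every library on both of its starts. Its upstream start at 7133015 held 85.1% and 90.01% in the controls, 91.1% and 86.7% in sequence 2, and 17.2% and 14.9% in sequence 3. Only the sequence 3 libraries were low, and there the downstream start at 7136007 had 11.0 and 13.0 FPKM against 1.16 to 2.55 elsewhere. In XLOC_043671 on chromosome 8, the start at 99713783 held 65.7% and 68.8% in the controls, 61.5% and 72.6% in sequence 2, and 4.96% and 4.91% in sequence 3. Neither this call nor that of XLOC_026489 held when any 1 library was left out. In XLOC_041689 on chromosome 7, the start at 118792625 was below 0.8 FPKM in the controls and sequence 2 and had 122 and 101.8 FPKM in sequence 3, through which alone it was kept. In XLOC_027152 on chromosome 20, the start at 27782831 was listed only in sequence 3, at 26.1 and 24.0 FPKM, and had been kept through these libraries alone. XLOC_034954 on chromosome 5 was split the other way, with its upstream start at 135398906 at 12.5 and 11.6 FPKM in sequence 2, 0 in sequence 3, and 0 and 3.23 in the controls. Without the sequence 2 libraries this start would not have been kept. Each of these exchanges was shared by both libraries of a sequence and absent from the other sequence.

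**Figure D5:**
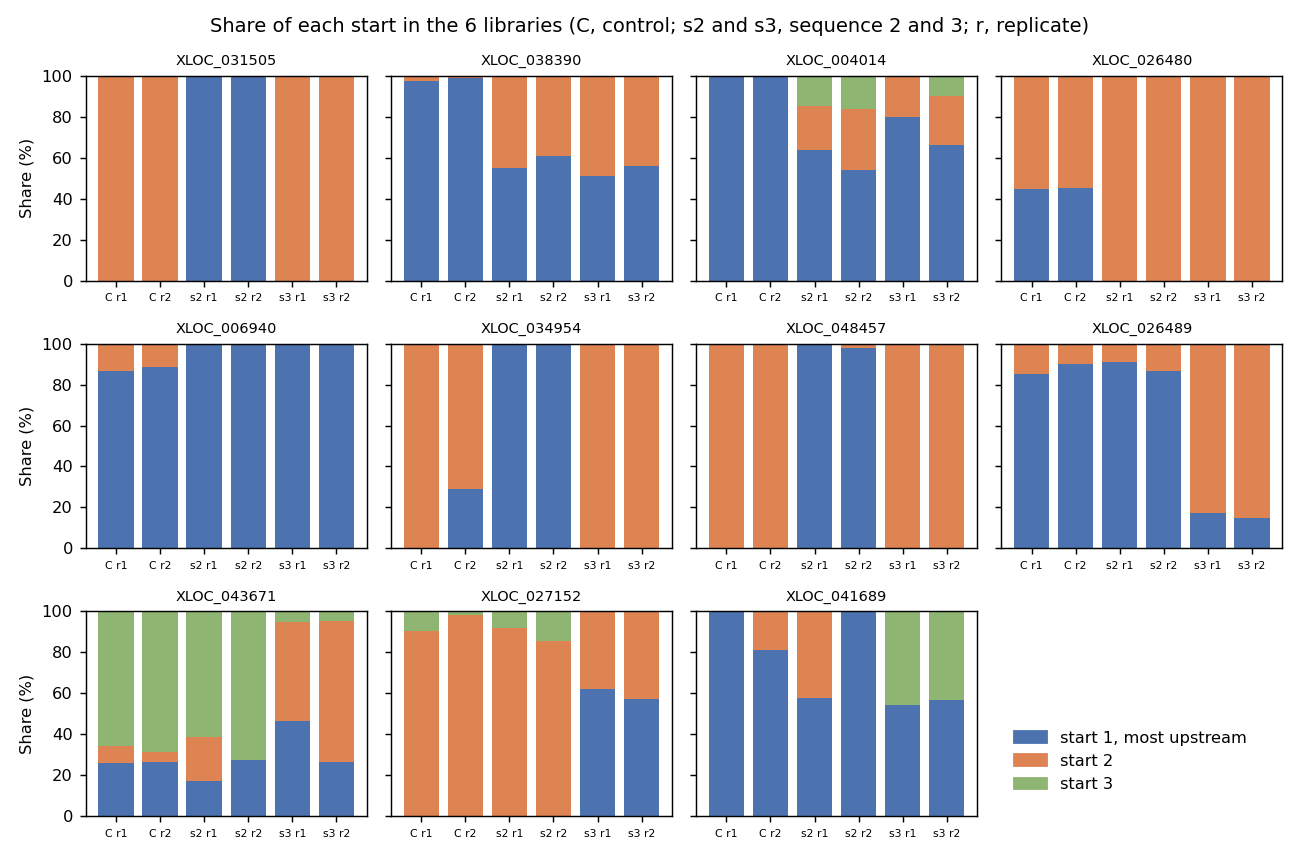
The stacked bars give the share of each start in its locus (vertical axis, percent) in the 6 libraries (horizontal axis: C for control, s2 for sequence 2 and s3 for sequence 3, each with its replicate) for the loci ranked first in knockdown against control and those that differed between the sequences. In XLOC_038390, XLOC_004014, XLOC_026480 and XLOC_006940 both sequences moved the same way from the controls. In the other loci the libraries of 1 sequence stood apart in at least 1 start. The share of the leading start of XLOC_041689 also differed by up to 42.3 percentage points between replicates of a group.

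In level, the members moved little as a whole. Of the 3568 members, 104 (2.91%) were lower and 46 (1.29%) higher by limma on log2(FPKM + 1), against 2.48% and 1.39% of all 11854 kept starts tested, and 2.29% and 1.44% of the starts of single-start loci. The unadjusted counts for members ran the other way, 271 lower and 347 higher, and the median log2 difference of knockdown against control was 0.04 for members and 0.07 for all kept starts. With the libraries scaled to the same median, the median difference for members was -0.003. The limit of 1 FPKM bears on these counts. It was reached in controls only by 81 members, of which 51 were called lower, and in knockdown only by 327, of which 22 were called higher. The first count needed both controls and the second any 2 of the 4 knockdown libraries, so the counts are not alike. Each of these members was kept through 1 side alone. Both controls and no knockdown library listed 53 members, of which 40 were called lower, and all 4 knockdown libraries and no control listed 24, of which 13 were called higher. Leaving out control replicate 1 left 16 members lower and 11 higher. Leaving out control replicate 2 left 14 in each direction. The counts were 64 and 16 when sequence 2 replicate 1 was omitted, and 65 and 14 for sequence 2 replicate 2.

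The called members lay in 117 of the 1575 member loci. A locus with several starts has several chances of a call, whereas of the loci with 1 kept start 2.29% were lower and 1.44% higher. The counts below are thus a description, and 51 of the members called lower reached the limit in controls only. A start was lower in 79 loci, and all kept starts of the locus were lower in 15 of them. A start was higher in 45 loci, and all kept starts were higher in 1. In 7 loci 1 start was lower while another was higher.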

How the data were processed

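Libraries of 3 groups (control, interference sequence 2 and interference sequence 3, 2 libraries each) were grouped by their labels. The deposited files hold FPKM per transcript event, computed by the authors for each library on its own. Tools named in the submitters' notes, without roles, were HISAT2 2.0.1, HTSeq 0.6.1, SAMtools 0.1.18, StringTie 1.0.4, Trimmomatic 0.30 and bcl2fastq 2.17.1.14. The sources used here name neither the genome build nor the event caller. The files hold no counts, so depth and counting error are unknown.

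Starts were read from the event type for transcript starts and joined between libraries by the event number of the files, and an unlisted start was set to 0, which can be a failed estimate. The filter was 1 FPKM in 2 libraries. For shares, loci needed a summed FPKM of 5 in every library, and the log2 ratio of (FPKM + 1) of a start to (FPKM + 1) summed over the other starts was fitted with limma 3.58.1 (R 4.3.3) with a trend, over 3 groups, with Benjamini-Hochberg adjustment. The starts of a locus with 2 starts mirror each other in this test. Levels were fitted on log2(FPKM + 1) over all 11854 kept starts. Tables were made with Python 3.11.15 and pandas 2.3.3. The fits were tested on simulated data with normal noise on the log scale. Unlisted starts were not simulated as such, so calls that rest on them were not tested in this way.

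The members and lists were chosen with earlier results of these data known. Loci were named by rule: up to 12 with a share past the test and all 4 knockdown libraries on one side, filled to 5 by adjusted p; the 5 with most starts; the 8 of highest FPKM; 5 in which another start led; 3 starts on each side of the limit; and the 4 widest and 4 shortest distances, pairs at 0 bases left out. Not all are described. Loci that differed between the sequences or crossed over in lead were named after their values were seen. Gene lists and markers were not analysed, as no IDs could be paired with names.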

Additional observations from a re-analysis of the deposited data

Results flagged for a closer look

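The shares of 11 starts differed between the 2 interference sequences, by limma's contrast of sequence 3 against sequence 2, with 2 libraries each. The adjusted p (limma, Benjamini-Hochberg) was 0.000813 for the start at 29528465 and 0.0131 for that at 29529440 of XLOC_031505, and 0.00235 for both starts of XLOC_048457, where the sequence 2 libraries stood apart. It was 0.0201 for both starts of XLOC_026489, 0.0244 for the start at 99713783 of XLOC_043671, 0.0148 for that at 27782831 of XLOC_027152 and 0.0171 for that at 118792625 of XLOC_041689, where the sequence 3 libraries stood apart. It was 0.0445 for both starts of XLOC_034954. In each locus both libraries of one sequence lay on one side of both libraries of the other. The starts at 29528465 of XLOC_031505, 65226418 of XLOC_048457 and 27782831 of XLOC_027152 were listed in 1 sequence only, and that at 118792625 of XLOC_041689 reached 1 FPKM in sequence 3 only, so each entered the test only through that sequence. They had to differ, as had the shares of the other starts set against them, so their p-values carry no support. The start at 29528465 could not be fitted without sequence 2 replicate 1 or 2, where limma passed 0 starts, with 167 below 0.05 before adjustment in each case. The upstream start of XLOC_034954 reached 1 FPKM in sequence 2 and in 1 control library only, so it would not have been kept without sequence 2. The p-values of both its starts therefore carry no support either, and the start at 135399383 passed in 7 of 15 alternative settings that could be fitted. Those of XLOC_026489 (at 7136007) and XLOC_043671 passed in 10 of 17 such settings. The settings in which those starts did not pass were the replicate block (limma adjusted p = 0.113 for each) and every omission of 1 library. No direction was reversed in these loci. Whether these differences belong to the sequence, the virus preparation or the libraries cannot be told apart with this design.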

How the results depend on the processing

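Depth was unknown, groups had 2 libraries, and a start at 0 may be a failed estimate. Share calls changed with the settings, and the cause was not tested except where fewer starts or libraries entered. Starts called by share (limma) numbered 8 for knockdown against control, 8 for sequence 2, 9 for sequence 3 and 11 between the sequences. With a pseudocount of 0.1 sequence 2 gave 5 and sequence 3 gave 0 (222 at an unadjusted p under 0.05). With 5 FPKM as the limit they gave 4 and 5, 54 members were lower in level, and the median share of the leading start was 67.9%. With no filter on low values knockdown gave 28 starts in 17 loci, sequence 2 gave 14 and sequence 3 gave 23. Without limma's trend knockdown gave 29 starts in 16 loci, sequence 2 gave 15 and sequence 3 gave 26. With a locus total of at least 1 knockdown gave 18 starts in 10 loci, sequence 3 gave 14 and the leading share was 73.6%, and with at least 10 knockdown gave 13 starts in 8 loci. In alternatives chosen after seeing the data, starts listed in all 6 libraries gave 29 lower and 22 higher members, 2 calls for sequence 2, 7 between the sequences and a leading share of 69.9%, and merging starts at the same position moved the median distance to 3290.5 bases. Merging starts within 100 bases moved it to 4907.

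Leaving out 1 library gave 0 to 0 starts and 0 to 0 loci for knockdown, 0 to 5 for sequence 2, 0 to 0 for sequence 3, 0 to 8 between the sequences, 14 to 92 members lower and 11 to 41 higher in level. Groups of 1 remaining library were assumed to vary like the other groups.

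In the log2 ratios used for shares, correlations of same-numbered deviations were -0.01, 0.01 and -0.02. Levels were not checked in this way, so whether libraries of the same number were paired is not settled. With the replicate block limma gave 0 starts in 0 loci for knockdown (199 unadjusted), 4 for sequence 2, 0 for sequence 3 (209 unadjusted), 4 between the sequences, and 65 lower and 22 higher members in level. Of 178 comparisons of single named starts with their alternatives, 111 stayed on their side of the threshold, 10 came to pass, 57 ceased to pass and 0 changed direction.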
